A study of Rattus norvegicus with 6 samples.

Results

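The mRNAs of 10 genes that coat lipid droplets or break down the triglyceride inside them were described in rat liver. They encode the perilipins Plin2, Plin3, Plin4 and Plin5, the CIDE proteins Cideb and Cidec, the triglyceride lipase Pnpla2 with its inhibitor G0s2 and its coactivator Abhd5, and hormone-sensitive lipase, Lipe. The members were the loci whose symbol equalled one of these names, and each name was found on 1 locus, among 28007 different symbols in all. Of the 10 members, 8 reached the mean level of 1 FPKM (sequenced fragments for each kilobase of transcript and each 1000000 fragments mapped) that was asked of the 10201 loci compared, and Plin4 and Pnpla2 did not.

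Male obesity-prone Sprague Dawley rats of 160 to 190 g at the start received the low-fat diet TD 08485 (control diet, CD) or the diet TD 88137, rich in milk fat, sucrose and cholesterol (Western diet, WD), for 2 weeks, and their ages were not given in the sources used here. The rats were fasted overnight, and the study's Results describe a short refeeding with the same diet before the liver was taken. Total liver RNA was sequenced, as was the RNA of a light fraction (mRNAs on 3 or fewer ribosomes) and of a heavy fraction (4 or more ribosomes) of sucrose gradients. The gradients were loaded with the supernatant left after homogenate of the left lobe was centrifuged. The livers of 3 rats on a diet contributed RNA to a common pool, so each of the 6 groups was 1 library, no value had a replicate, and no test between diets was possible.

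A lipid droplet is a store of triglyceride and sterol ester under a single layer of phospholipid, and its coat proteins set how large it grows and how freely lipases reach its core. In hepatocytes Plin2 is the main coat protein, and droplets accumulate when fatty acid supply exceeds oxidation and secretion. Lipolysis starts with Pnpla2, also called adipose triglyceride lipase, which Abhd5 activates and G0s2 blocks, and Lipe then acts on the diglyceride that Pnpla2 leaves.

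The start of an mRNA bears on how it is spread between light and heavy fractions, because mRNAs of the translation machinery open with a C and a run of pyrimidines (C or T), the 5′ terminal oligopyrimidine (TOP) motif. RefSeq promoter windows of the rat assembly GRCr8, on which the coordinates of these windows stand, were matched by symbol for 9 of the 10 members, with 14 annotated starts among them. No window was matched for Lipe, for whose mRNA the study reports a motif resembling TOP. Each line gives 10 bases before the start in lower case and the 10 bases that begin the mRNA in capitals. They are shown for the members with the most fragments, and for Plin4 as the member with a start that matches the TOP motif. Of the several Plin4 starts, some matched the motif and others did not, and 1 that matched is shown.
Plin2, chr5:106229009-106229028, minus strand: gccttgctgtGCGGTGATTC
Plin2, second start, chr5:106228528-106228547, minus strand: gcttccgcttTCCAGGCAAT
Plin3, chr9:1210203-1210222, minus strand: ccctccgggtAGATCGGAGC
Cideb, chr15:33226398-33226417, minus strand: cacacaacagAAGTGCCCAG
G0s2, chr13:107335939-107335958, minus strand: aggacgcaaaGGCCAGTCTG
Abhd5, chr8:130877862-130877881, plus strand: gcctgtcagcCGGCTTCGAG
Plin4, chr9:1025240-1025259, minus strand: gcatgtgacaCCCCTCCCCC

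A C at the start with 4 pyrimidines after it was found for 1 of the 9 members, Plin4, and for 3.11% of 27457 genes in the same table. CCAAT, read on both strands of the 300 bases from 250 before to 50 after the start, was present for Plin2, Plin3 and Plin5 and for 39.6% of all genes. A spaced repeat of the kind that PPAR and RXR receptors bind, AGGNCA followed after 1 base by AGGNCA again, read on both strands of the same bases, was found for 0 of the 9 members and for 0.437% of all genes. These matches describe letters in a window and were not tested against the measurements.

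Precision was set by the number of sequenced fragments behind each value, which was inferred from the FPKM values for 7 members and for 7887 of the loci compared (77.3%). The median locus held 9 to 25 fragments per library. The WD light library was 2.34 times as deep as the CD heavy library, and the others were 1.00 to 1.57 times as deep. The intervals given here are 95% intervals from these fragments, and they cover counting error between libraries only, not the spread between rats. The bounds deposited with the FPKM values overlapped between the diets for every member in each kind of RNA. Copies made by PCR were not told apart, so fragments are not independent molecules.

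The WD light library stood apart in the blood gene Hbb, at 242 FPKM against 0 to 13.9 FPKM in the other 5 libraries. The other blood cell markers found did not go with Hbb, since WD light was the lowest library for both Alas2 (7.18 FPKM, 8.23 to 19.7 elsewhere) and Ptprc (2.11 FPKM, 2.87 to 3.51 elsewhere). The part of blood RNA in any result that rests on this library was not tested, and each density interval printed here that excluded 1 is given with total RNA instead of light RNA as well. Hepatocyte markers were all present, 7 of 7, and summed to between 39612 and 120390 FPKM. Of 7 adipocyte markers, 5 were listed at 0 in all libraries (Adipoq, Lep, Plin1, Retn and Slc2a4), and the sum of the list was 14.3 to 40.9 FPKM. The summed levels were 41.1 to 100.3 FPKM for Kupffer cell markers, 46.3 to 78.1 FPKM for stellate cell markers and 48.7 to 70.9 FPKM for endothelial markers. In such bulk RNA, fewer cells of a type and less RNA per cell cannot be told apart.

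G0s2, Cideb and Plin2 made up most of the members' RNA. On the FPKM scale, which is per transcript length and allows genes to be compared, the members summed to between 528 and 743 FPKM per library. The lipase inhibitor G0s2 took 37.4% to 62.3% of that sum and stood highest in all 6 libraries. Cideb and Plin2 followed, and their levels could not be ordered by counting error in CD total, WD total, WD light or WD heavy RNA. In CD light RNA Cideb exceeded Plin2 2.16-fold (1.62 to 2.89), and in CD heavy RNA 1.32-fold (1.01 to 1.72). Abhd5 and Cidec came next in total RNA, then Plin3, Lipe and Plin5. Each diet's heavy fraction placed Plin3 beside Abhd5, with ratios of Plin3 to Abhd5 of 1.06 (0.623 to 1.76) in CD and 1.42 (0.822 to 2.39) in WD. The plot of levels by library shows this order and the width of each interval.

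**Figure D1:**
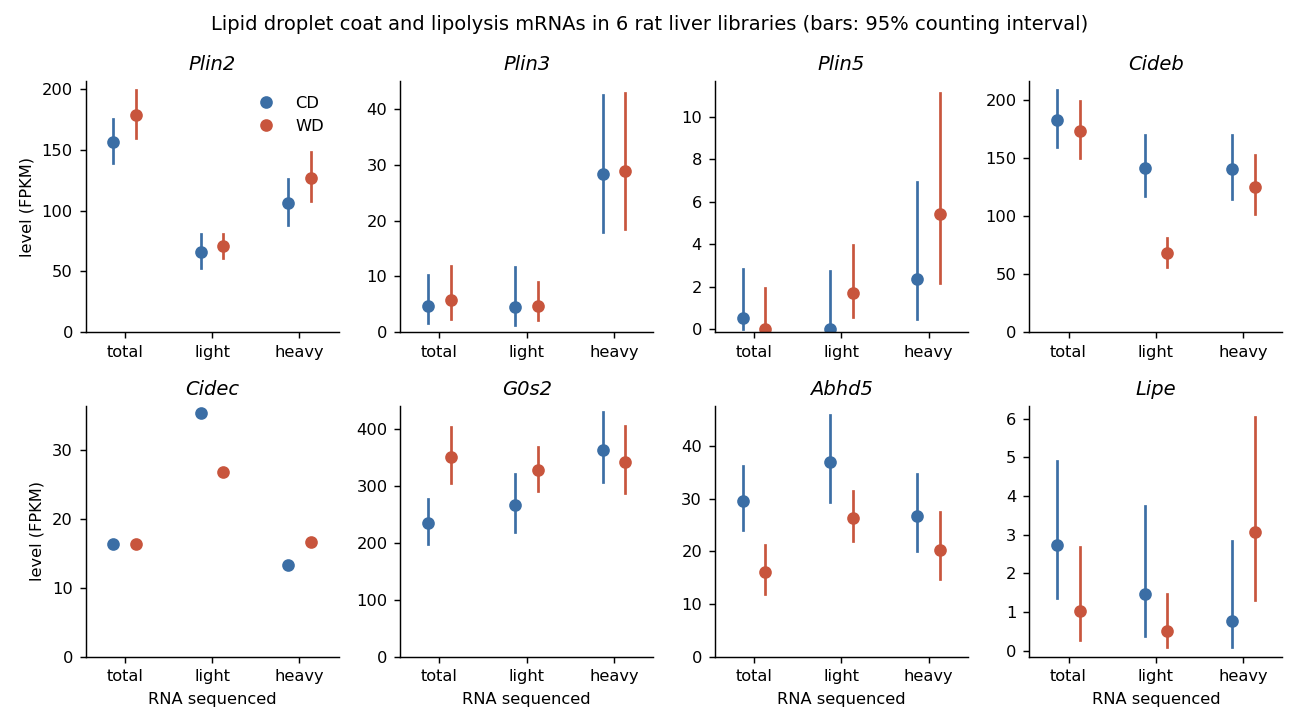
Level of each of the 8 members above 0 in FPKM (y axis, scaled per gene) in total, light and heavy RNA (x axis) for CD (blue) and WD (red), 1 library per point, with bars for the 95% exact Poisson interval of the inferred fragments; Cidec has no bar because its fragments could not be inferred. G0s2 and Abhd5 in total RNA and Cideb in light RNA separate the diets most clearly, and Plin3 is near 28 FPKM in both heavy libraries against under 6 FPKM elsewhere.

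Among the perilipins, Plin2, the coat protein that covers hepatocyte droplets and is stabilised by them, had the most abundant mRNA. Its locus was given as chromosome 5, 104984413 to 105010857, on Rnor_6.0, the build of all locus positions given here. Plin2 stood at 157 FPKM (297 fragments) in CD total and 179 FPKM (324) in WD total RNA, at 65.5 (85) and 70.6 (199) in the light fractions, and at 106 (128) and 127 (157) in the heavy fractions. WD was thus nominally above CD in each kind of RNA, but the ratios were 1.14 (0.971 to 1.34) in total, 1.08 (0.831 to 1.40) in light and 1.20 (0.942 to 1.52) in heavy RNA. All 3 intervals held 1. The steadier feature was its FPKM level in the heavy over the light fraction, 1.62-fold (1.22 to 2.15) in CD and 1.80-fold (1.45 to 2.23) in WD. FPKM values are scaled within each library, so such a ratio compares an mRNA's share of the libraries. It does not give the part of the molecules that lay in each fraction. The FPKM level of Plin2 was higher in total RNA than in either fraction in both diets. The same held for 26.1% of the loci compared in CD and 26.1% in WD.

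Plin3, a perilipin that moves from the cytosol to newly forming droplets, had another profile. On chromosome 9, 10773900 to 10781109, it was listed at 4.70 FPKM (6 fragments) in CD total, 5.74 (7) in WD total, 4.59 (4) in CD light, 4.75 (9) in WD light, 28.3 (23) in CD heavy and 28.8 (24) in WD heavy RNA. The heavy libraries stood far above all the others, and the diets did not separate in any kind of RNA. Heavy over light was 6.18 (2.11 to 24.6) in CD and 6.08 (2.73 to 14.9) in WD, above 95.5% and 97.3% of the loci compared. WD over CD was 1.22 (0.351 to 4.39) in total, 1.03 (0.289 to 4.60) in light and 1.02 (0.551 to 1.89) in heavy RNA. Plin2 exceeded Plin3 33.3-fold in CD total and 31.1-fold in WD total RNA, and only 3.74-fold and 4.40-fold in the heavy fractions.

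Plin4 and Plin5 lie side by side on chromosome 9 with Plin3 nearby, at 10963722 to 10971277 and 10956055 to 10961782. Plin4, a coat protein known from adipose and muscle, was listed at 0 in all 6 libraries. A listed 0 need not mean absence, since 56.3% of loci with a symbol and 7 of 64 ribosomal protein symbols, Rps6 and Rpl8 among them, were also at 0 in every library. Plin5, which ties droplets to mitochondria in oxidative tissue, was close to the floor of counting. It was listed at 0.504 FPKM (1 fragment) in CD total and 0 in WD total, at 0 in CD light and 1.69 (5 fragments) in WD light, and at 2.37 (3) in CD heavy and 5.41 (7) in WD heavy RNA.

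The 16 Plin5 fragments lay mostly in the fractions, with the highest level in WD heavy RNA. Its heavy fraction ratio was 2.28 (0.520 to 13.7), an interval that held 1. No ratio is given for total RNA, where both libraries held fewer than 3 fragments, nor for ribosome density, which rests on a CD light library at 0. Against the floor of 3 fragments per library in CD light RNA (2.21 FPKM), the WD light level was itself lower.

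Cideb, the CIDE protein of hepatocytes that enlarges droplets and loads lipid onto very low density lipoprotein, had the light fraction ratio whose interval lay farthest from 1 among the 7 members with fragments. Its locus was chromosome 15, 34439875 to 34444244. The mRNA stood at 183 FPKM (217 fragments) in CD total and 173 (197) in WD total RNA, at 142 (115) in CD light and 68.0 (120) in WD light, and at 140.2 (106) in CD heavy and 125 (97) in WD heavy RNA. WD light was the low library, and the other 5 lay between 125 and 183 FPKM. The light fraction ratio of WD to CD was 0.480 (0.368 to 0.625), lower than for all but 9.10% of the loci compared, while total RNA gave 0.949 (0.779 to 1.16) and heavy RNA 0.893 (0.671 to 1.19).

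Ribosome density, here the heavy over light ratio in WD divided by that in CD, was accordingly 1.86 (1.26 to 2.76) for Cideb. Heavy over light was 0.990 (0.753 to 1.30) in CD and 1.84 (1.40 to 2.43) in WD. With total RNA instead of light RNA, the same comparison gave 0.941 (0.663 to 1.34), so the density difference rested on the WD light library. That library's Hbb level is given above, and its part in this value was not tested. Light over total was 0.775 (0.613 to 0.976) in CD and 0.392 (0.310 to 0.494) in WD.

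Cidec, also called Fsp27, passes lipid between touching droplets and is known as a gene of fatty liver and white fat. At its locus on chromosome 4, 145377430 to 145390497, the levels were 16.3 FPKM in CD total, 16.4 in WD total, 35.4 in CD light, 26.8 in WD light, 13.3 in CD heavy and 16.7 in WD heavy RNA. The light libraries were the high ones in both diets. No fragment number could be inferred for Cidec, so its ratios have no counting interval. Heavy over light was 0.376 in CD and 0.622 in WD, the lowest ratio of the 8 members in each diet. WD over CD was 1.01 in total, 0.759 in light and 1.26 in heavy RNA, which gave a density ratio of 1.65, and 1.25 with total RNA instead of light RNA. Its deposited bounds, like those of the other members, overlapped between the diets in each kind of RNA. Cideb exceeded Cidec 11.2-fold in CD total and 10.6-fold in WD total RNA, and 4.00-fold and 2.53-fold in the light fractions.

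Pnpla2, which cuts the first fatty acid from triglyceride, was listed at 0 in all 6 libraries at chromosome 1, 213997708 to 214002815. For the reason given for Plin4 this is stated only as a listed value, and no comparison of the lipase itself was possible. Both of its regulators were measured well.

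G0s2, the inhibitor that binds Pnpla2 directly, was at 235 FPKM (142 fragments) in CD total and 352 (203) in WD total RNA. In the light fractions it was at 267 (110) in CD and 329 (295) in WD, and in the heavy fractions at 365 (140) and 343 (135). CD total was the low library. The WD to CD ratio was 1.49 (1.20 to 1.87) in total RNA, just under the threshold of 1.5 and above 82.2% of the loci compared. Light RNA gave 1.23 (0.988 to 1.55) and heavy RNA 0.941 (0.738 to 1.20), so the interval cleared 1 in total RNA only. Its locus was chromosome 13, 112004139 to 112005052.

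The heavy over light ratio of G0s2 was 1.37 (1.06 to 1.77) in CD and 1.04 (0.845 to 1.28) in WD. Ribosome density was 0.763 (0.546 to 1.07), and with total RNA instead of light RNA 0.630 (0.452 to 0.878). Heavy over total was 1.55 (1.22 to 1.97) in CD and 0.976 (0.779 to 1.22) in WD.

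Abhd5, the coactivator that is held on perilipins until it is released to Pnpla2, was lower in WD in total and light RNA. The levels were 29.6 FPKM (96 fragments) in CD total and 16.1 (50) in WD total, 37.0 (82) in CD light and 26.4 (127) in WD light, and 26.7 (55) in CD heavy and 20.4 (43) in WD heavy RNA. WD lay under CD in each of the 3 kinds of RNA. The ratio was 0.545 (0.379 to 0.774) in total RNA, lower than for all but 11.0% of the loci compared. It was 0.712 (0.535 to 0.952) in light RNA and 0.763 (0.500 to 1.16) in heavy RNA, where the interval held 1. Heavy over light was 0.720 (0.502 to 1.03) in CD and 0.772 (0.533 to 1.10) in WD, and ribosome density was 1.07 (0.640 to 1.79). The locus was chromosome 8, 130973200 to 131001458.

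The inhibitor and the coactivator differed between the diets in opposite directions in total RNA. As a ratio of levels within a library, in which the scaling of the library cancels, G0s2 exceeded Abhd5 7.94-fold in CD total and 21.8-fold in WD total RNA. WD was thus 2.74 times CD (1.80 to 4.20). In light RNA the ratio was 7.20 in CD and 12.5 in WD, 1.73 times (1.20 to 2.50). In heavy RNA it was 13.7 in CD and 16.9 in WD, 1.23 times (0.756 to 2.02), an interval that held 1. This pair of opposing regulators was chosen after their values had been seen.

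Lipe, which hydrolyses diglyceride and sterol ester and is controlled by protein kinase A, was scarce, with 32 fragments over the 6 libraries. It was at 2.75 FPKM in CD total and 1.04 in WD total, 1.46 in CD light and 0.504 in WD light, and 0.784 in CD heavy and 3.06 in WD heavy RNA, on 2 to 11 fragments per library. WD was under CD in total and light RNA and above CD in heavy RNA. The ratios were 0.380 (0.0883 to 1.28) in total, 0.345 (0.0505 to 2.04) in light and 3.90 (0.779 to 37.7) in heavy RNA, and each interval held 1. Heavy over light was 0.537 (0.0486 to 3.75) in CD and 6.08 (1.46 to 35.6) in WD. Ribosome density was 11.3 (0.895 to 173), an interval that held 1. With total RNA instead of light RNA the same comparison gave 10.3 (1.16 to 125). The Lipe locus, chromosome 1, 82248045 to 82266727, had the same bounds as a second symbol, 4732471J01Rik. That symbol was listed at 2.42 FPKM in WD light RNA and at 0 in the other 5 libraries. The symbols were given separate levels, and how reads were divided between them was not checked.

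**Figure D2:**
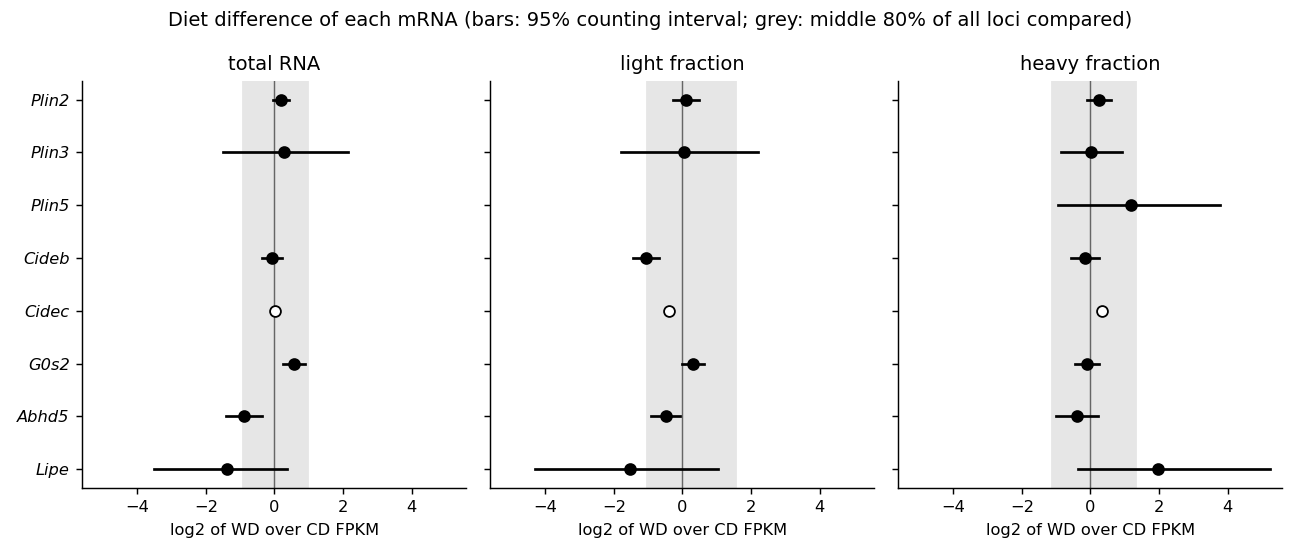
WD over CD ratio of each member on a log2 scale (x axis) in total, light and heavy RNA (panels), with bars for the 95% counting interval, an open point for Cidec, which has none, and a grey band for the middle 80% of all 10201 loci compared; Plin5 is drawn in heavy RNA only. Intervals stay clear of 0 for G0s2 and Abhd5 in total RNA and for Cideb and Abhd5 in light RNA.

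Counted over the members, few diet differences stood clear of counting error. Ratios in these counts were taken after 0.1 FPKM was added to each value, and the thresholds of 1.5 and 0.75 were those of the study for ribosome density. In total RNA 0 of 8 members had a ratio of at least 1.5, against 17.7% of the loci compared, and 3 of 8 (Abhd5, Lipe and Plin5) one of at most 0.75, against 22.7%. Without Plin5, which had 1 fragment in the pair, 2 of 7 were at most 0.75. The counting interval lay above 1 for 1 of 7 members (G0s2), against 6.07% of loci with fragments, and below 1 for 1 (Abhd5), against 6.06%.

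In light RNA 0 of 7 members other than Plin5 were at least 1.5 (25.9% of loci) and 3 were at most 0.75 (Cideb, Abhd5 and Lipe, 26.8% of loci). Plin5 passed 1.5 only through the 0.1 FPKM added to a CD light level of 0. The interval lay below 1 for 2 of 7 (Cideb and Abhd5, 11.1% of loci) and above 1 for 0 (11.2%). In heavy RNA 2 of 8 were at least 1.5 (Lipe and Plin5, 21.7% of loci) and 0 at most 0.75 (25.8%), and no interval excluded 1, against 6.14% of loci above and 6.3% below. The median log2 difference of the members was -0.03 in total, -0.17 in light and 0.14 in heavy RNA, beside 0.02, 0.02 and -0.02 over all loci. Leaving out Plin5, whose log2 values depend on the 0.1 FPKM added, the medians were 0.01, -0.40 and 0.03.

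Scaling changed some small differences. Rescaling each library to the same sum over loci with a symbol moved the median of all loci to 0.12 in total RNA, -0.29 in light RNA and 0.28 in ribosome density. On that scale the log2 difference was 0.68 for G0s2 and -0.78 for Abhd5 in total RNA, and -1.41 for Cideb and -0.84 for Abhd5 in light RNA, so these kept their direction. The light fraction differences turned negative for Plin2 (-0.25), Plin3 (-0.30) and G0s2 (-0.05), and those of Cideb in total RNA (0.02) and of Plin3 in ribosome density (0.30) turned positive.

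**Figure D3:**
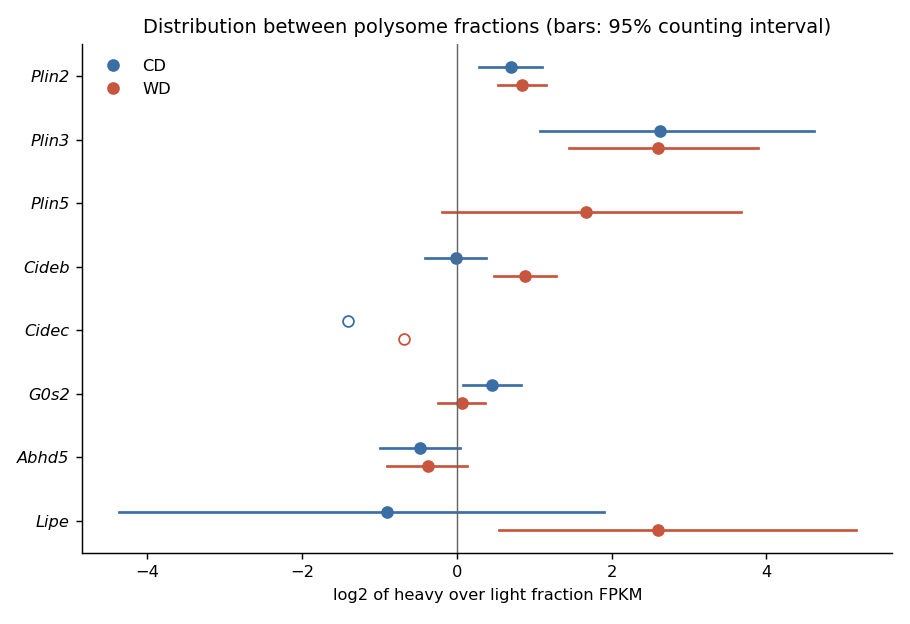
Heavy over light ratio of each member on a log2 scale (x axis) in CD (blue) and WD (red), with bars for the 95% counting interval and open points for Cidec, which has none; Plin5 in CD is left out because its light library was at 0. Plin2 and Plin3 lie right of 0 in both diets, Cidec lies left of 0 in both, and Cideb lies right of 0 in WD only.

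The members differed in their ratio of heavy to light fraction levels. The interval of heavy over light lay above 1 for 3 of 7 members in CD (Plin2, Plin3 and G0s2), against 17.9% of loci with fragments. In WD it lay above 1 for 4 of 7 (Plin2, Plin3, Cideb and Lipe), against 20.9%. It lay below 1 for 0 of 7 members in either diet, against 15.5% of loci in CD and 19.4% in WD. For ribosome density, 3 of 7 members other than Plin5 had a ratio of at least 1.5 (Cideb, Cidec and Lipe, 27.7% of loci) and 0 one of at most 0.75 (36.1% of loci). The density value of Plin5 was set by the 0.1 FPKM added and is not counted here. The density interval lay above 1 for 1 of 7 (Cideb, 7.8% of loci) and below 1 for 0 (7.27%). With total RNA instead of light RNA, 1 of the same 7 ratios was at least 1.5 (Lipe, 26.7% of loci) and 1 at most 0.75 (G0s2, 31% of loci), and the interval lay above 1 for Lipe alone (4.99% of loci) and below 1 for G0s2 alone (5.28% of loci). The median log2 density difference of these 7 members was 0.15, beside -0.02 over all loci.

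Other genes of droplets and lipolysis were read from lists. Of 12 genes of droplet biogenesis and size, 9 reached 1 FPKM, and in total RNA their median log2 difference was -0.06. Of these 9, 1 ratio was at least 1.5 (Rab3gap2, 17.7% of loci) and 3 were at most 0.75 (22.7% of loci; Hilpda, and Fitm2 and Tmem159, which were named after their values were seen). Bscl2, or seipin, which shapes the droplet's neck at the endoplasmic reticulum, had the highest mean and was at 26.2 FPKM in CD total and 28.4 in WD total RNA. The interval lay below 1 for 1 of 8 genes with fragments, against 6.06% of loci. That gene was Fitm2, which helps droplets bud, at 34.0 FPKM in CD and 23.4 in WD (0.534 to 0.879). Hilpda, another protein inhibitor of Pnpla2, had 1 fragment or fewer in each total library, so no ratio is given. The list's median log2 density difference was -1.03, with 6 of 9 ratios at most 0.75 (36.1% of loci) and 1 at least 1.5 (27.7% of loci). Among the low ones, the values of Cidea and Hilpda were set by the 0.1 FPKM added to libraries at 0. The median was the value of Tmem159, on 4 fragments in CD heavy and 3 in WD heavy RNA. With total RNA instead of light RNA the list's median was -0.06. No density interval of the 7 genes with fragments excluded 1. The 1 ratio of at least 1.5 was that of Acsl3, which activates fatty acids at budding droplets, at 0.78 on the log2 scale.

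Of 10 other droplet-associated proteins, 9 reached 1 FPKM, with a median of -0.15 in total RNA and 1 ratio of at least 1.5 (17.7% of loci), that of Ldah (2.08 FPKM in CD and 4.71 in WD, interval 0.803 to 7.27). The most abundant, the droplet dehydrogenase Hsd17b11, was at 313 FPKM in CD and 335 in WD (0.945 to 1.21). Aup1, a droplet protein that recruits ubiquitin enzymes, was at 143 FPKM in CD light and 81.4 in WD light, and at 93.3 in CD heavy and 142.7 in WD heavy RNA. Its density ratio had an interval of 1.86 to 3.91, the only 1 of 7 in the list above 1 (7.8% of loci). The only density interval under 1 in the list (7.27% of loci) was that of Hsd17b13 (0.341 to 0.751), also named after its values were seen. With total RNA instead of light RNA both intervals held 1, at 0.772 to 2.07 for Aup1 and 0.646 to 1.20 for Hsd17b13.

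The 8 other lipases and hydrolases at 1 FPKM or more had a median of -0.22 in total RNA, with 1 ratio of at least 1.5 (17.7% of loci) and 4 of at most 0.75 (22.7% of loci). Abhd6, a monoglyceride hydrolase, was at 16.6 FPKM in CD and 5.95 in WD (0.175 to 0.686), and Aadac, a deacetylase of the endoplasmic reticulum, at 3.03 in CD and 11.4 in WD (1.35 to 13.0). Ces1d, which mobilises triglyceride for secretion, was at 158 FPKM in CD and 236 in WD and had no interval. Pnpla6 was at 3.19 in CD and 2.15 in WD.

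Of 7 transcription factors and coactivators of droplet genes, 1 ratio in total RNA was at least 1.5 (Foxo1, 17.7% of loci) and 1 at most 0.75 (Nr1h3, 22.7% of loci), with a median of 0.04. Ppara, the fatty acid receptor of hepatocytes, was at 57.2 FPKM in CD and 58.6 in WD total RNA. Foxo1, which insulin restrains, was at 9.64 in CD and 15.1 in WD (0.931 to 2.68). Nr1h3, the sterol receptor LXR alpha, was at 32.3 in CD and 21.0 in WD (0.408 to 1.02). Its density interval, 0.241 to 0.784, was the only 1 of 4 in the list to lie below 1, against 7.27% of loci. With total RNA instead of light RNA its log2 difference turned from -1.20 to 0.27 (interval 0.624 to 2.33).

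The list that stood lowest in WD total RNA was that of 7 PPAR alpha targets outside the members, with a median log2 difference of -0.46 and 5 ratios of at most 0.75, against 22.7% of loci. The interval lay below 1 for 4 of 7 (Cpt1a, Pdk4, Ehhadh and Creb3l3, of which Pdk4 and Creb3l3 were named after their values were seen), against 6.06% of loci. Ehhadh, an enzyme of peroxisomal fatty acid oxidation, had the highest mean and was at 298 FPKM in CD and 179 in WD (0.541 to 0.667), and Angptl4 was at 39.4 in CD and 36.3 in WD (0.654 to 1.30). Of the members, Plin2 and G0s2, both known as PPAR alpha targets, had total RNA ratios of 1.14 (0.971 to 1.34) and 1.49 (1.20 to 1.87). These genes were not taken from a fixed list, and which other members are PPAR alpha targets was not assessed. The pair therefore does not stand for the targets among the members. Over the 8 members compared, 4 were higher and 4 lower in WD total RNA. The part of PPAR alpha in these values was not tested. The protein kinase A list, 6 genes with a median of 0.08, had 1 ratio of at most 0.75 (22.7% of loci), that of the catalytic subunit Prkaca at 24.3 FPKM in CD and 15.4 in WD (0.402 to 0.989). Its regulatory subunit Prkar1a was at 39.7 in CD and 42.3 in WD (0.723 to 1.57), and Gnas at 8.47 and 11.8 (0.539 to 3.75).

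**Figure D4:**
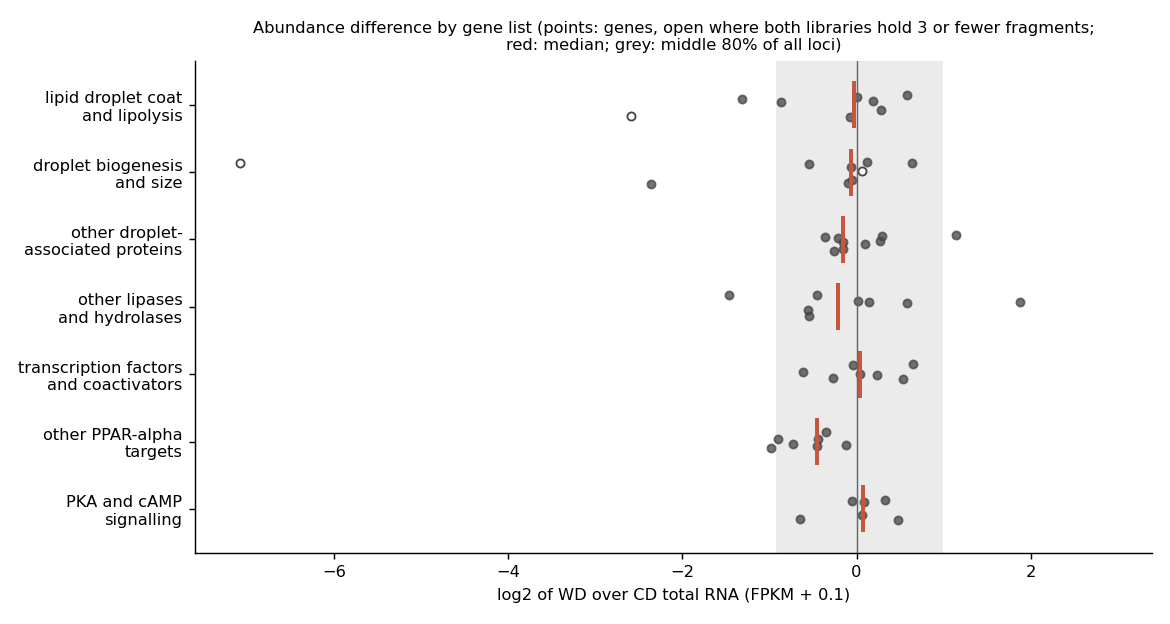
Log2 of WD over CD in total RNA after adding 0.1 FPKM (x axis) for each gene of 7 lists (rows) with a mean of at least 1 FPKM, open where both total libraries held 3 or fewer inferred fragments, with red marks for list medians and grey for the middle 80% of all loci compared. The median of the coat and lipolysis genes is at -0.03, and the PPAR alpha target list has all 7 points left of 0 and its median at -0.46.

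The genes whose pattern over the 6 libraries was most like that of a member were found by the distance between gene-centred log2 levels. For Plin2 the nearest of 3743 genes were Pcdh1, at a distance of 0.11, and Sil1, at 0.32, against a median distance of 1.80. Pcdh1 was at 20.0 FPKM in CD total and 23.4 in WD total, 8.40 and 9.19 in light and 14.6 and 17.6 in heavy RNA, so that it too was highest in total and lowest in light RNA. For Cidec the nearest were Gpx4 at 0.25 and Lrrc58 at 0.26, against a median of 1.78. Both were highest in CD light RNA. For Plin5 the nearest genes were AABR07070032.1 at 2.58 and Psma6 at 2.88, against a median of 5.41, which on 16 fragments is no close match.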

How the data were processed

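Total RNA and the light and heavy gradient fractions of CD-fed and WD-fed rats were each sequenced as 1 pooled library after ribosomal RNA depletion. Alignment by the authors used TopHat and the assembly Rnor_6.0, and they deposited Cufflinks and Cuffnorm FPKM values with lower and upper bounds, and the annotation was not given in the sources used here. Whether the fraction libraries took the study's separate Riboseq route is not certain from its methods. Locus starts are printed as deposited.

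Loci were compared where they had a symbol, an estimate marked as successful and, over the 6 libraries, 1 FPKM or more on average. Log2 differences were taken after adding 0.1 FPKM, and a ratio is WD over CD of the deposited FPKM values, whereas the study's density thresholds refer to CD over WD. Fragment numbers were inferred as the whole numbers, within 0.01%, explained by 1 step per gene and 1 factor per library. The deposited bounds depend on the fragment number, and 81.9% of 30151 values (30 fragments or fewer) had the relative bound their number shares. In simulated data for the comparison of total RNA, numbers could be found for 99.1% of 7887 genes and equalled the true ones in all libraries for 98.0% of those found. The simulation took only loci whose numbers had already been inferred and built values from the same steps and factors. It therefore describes recovery under that model and not how well the model holds for the deposited values. Intervals are exact Poisson (levels), Clopper-Pearson (ratios) and conditional odds ratio intervals (density), computed at 95%. Computation used scipy 1.17.1 for intervals, pandas 2.3.3 and numpy 2.4.6 for tables and matplotlib 3.10.9 for plots, under Python 3.11.15.

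All 10 members were named, and from each other list the gene with the highest mean and those with the highest and lowest difference in abundance and density, of which some are given here only in counts. For Plin2, Plin5 and Cidec, the 2 nearest genes with a mean of at least 10 FPKM were named, and Pnpla2, at 0, allowed none. The members and lists were chosen with earlier results of these data known, and 2 genes of a list are not reported here. Alternatives were an added 1 or 0.01 FPKM, rescaled or median-centred values, a mean of at least 10 FPKM, no filter, heavy over total RNA, and the deposited bounds in place of the counting intervals. Leaving out Plin5 was added after its values were seen.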

Additional observations from a re-analysis of the deposited data

Results flagged for a closer look

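Lipe was the member whose diet differences in the light and heavy fractions pointed in opposite directions with the largest gap, at 3.21 on the log2 scale after adding 0.1 FPKM (heavy minus light). With 1 library per group the difference between fractions was not tested. Its counting interval as a ratio, 0.895 to 173, held 1, and the values rest on 2 to 8 fragments per fraction library and on a locus shared with a second symbol.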

How the results depend on the processing

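No paired analysis was possible because each group was 1 pooled library. The members' log2 differences were recomputed with 0.01 or 1 FPKM added, centred, or without a filter on low values (32 each). With a mean of at least 10 FPKM there were 24. Centring took Cidec in total RNA, which has no interval, from 0.0094 to -0.012. All the other differences kept their direction or moved by less than their counting interval. Rescaled libraries left 29 of 32 so and moved 3, and put 1 member at a ratio of at least 1.5 in total RNA (0 as reported). A mean of at least 10 FPKM left 1 member at most 0.75 in total RNA (3 as reported), 0 at least 1.5 in light RNA (1 with Plin5 counted) and in heavy RNA (2), and 0 at most 0.75 in density (1 with Plin5 counted), because Plin5 and Lipe were no longer counted. Leaving out Plin5 gave 0 at least 1.5 in light RNA, 1 in heavy RNA and 0 at most 0.75 in density. The deposited bounds overlapped for every member, so 0 members separated the diets in total or light RNA (2 each by counting interval). With total RNA instead of light RNA, the log2 density difference turned from 0.90 to -0.087 for Cideb, and from -3.01 to 3.75 for Plin5, where neither value is a bound. Depth limits Plin3, Plin5 and Lipe most, with as few as 4, 0 and 2 fragments in a library.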
